A study of Arabidopsis thaliana with 24 samples.

Results

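The transcripts described here reached their highest level in wild-type Arabidopsis seed 6 h into the light. They are 150 of the 22746 non-control probe sets on the array. The choice used wild-type values only. For each probe set the mean of log2(intensity + 16) was taken over the wild-type arrays at each of 4 stages, the highest of the other 3 means was subtracted from the mean at 6 h in the light, and the 150 largest differences, called scores here, were kept. In the annotation used, 88 members had 1 gene each, 1 had several and stays unnamed, and 61 were not listed and are given by probe set.

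RNA was extracted from 80 mg of seed for each of 24 1-colour arrays, which form 8 groups of 3. The tim17-1 groups, labelled Attim17-1 and of the Col-0 background, and the WT groups, Col-0, each covered the same 4 stages. The stages were the dry seed (0 h), imbibed seed stratified for 48 h in darkness at 4 °C (48 h S), and seed that then spent 6 h (6 h SL) or 24 h (24 h SL) in continuous light at 22 °C. Ripening before the dry stage is given as 15 days in the design and 14 days in the treatment protocol. The description of the WT 6 h SL group, which chose the members, names stratification. Its titles, source name and time give 6 h of light, and the titles were used here. The labels do not describe the nature of the tim17-1 allele, and the transcript of TIM17-1 itself is not used here, which leaves the genotype labels without a check by the targeted gene. Nothing in the labels says that the 3 arrays of a group came from separate seed lots, so p-values refer to the spread among these arrays, and that spread may be technical.

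A dry seed holds messenger RNA stored during maturation. Uptake of water restarts transcription, translation and respiration, and much of the translation machinery and of the mitochondria is rebuilt before the radicle emerges. Cold in the dark followed by light is a standard way to release dormancy and synchronise germination, light acting mainly through phytochrome and gibberellin. Cell expansion then depends on proteins that loosen the cell wall, and seedling growth begins later with greening and the use of stored oil. TIM17 proteins belong to the channel that carries proteins across the inner mitochondrial membrane.

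Array medians lay between 19.6 and 36.4 and upper quartiles between 234 and 258 intensity units, with 39.3 to 44.5% of probe sets over 64. The medians differed by stage without overlap. They were 19.6 to 20.8 at 0 h, 26.3 to 29.9 at 48 h S, 31.0 to 32.8 at 6 h SL and 35.4 to 36.4 at 24 h SL. The part of this shift in the members' changes was not tested. No detection calls came with the values, so how far weak signals lie above background is not known, and 3 arrays per group limit the precision of every value. Of the members, 139 were over 64 on all 3 tim17-1 arrays at 6 h SL and 139 on all 3 WT arrays, against 61 in tim17-1 and 60 in WT dry seed. A filter on intensity over 64 in all arrays of at least 1 group kept 140 of the 150, and since a peak alone can carry a member past it, nothing rests on that subset.

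Marker lists of seed storage, seed coat and pollen were followed through the same stages. Here and below, a listed gene counts as measured if it had a probe set with 1 gene in the annotation. Others may lie among the probe sets without 1 gene and could not be followed. Only 2 of 11 seed storage markers had a probe set with 1 gene, and their summed intensity in tim17-1 lay at 8149 to 9242 at 0 h, 583 to 617 at 48 h S, 688 to 903 at 6 h SL and 622 to 662 at 24 h SL. OLEO3, an oil body protein of seeds, fell by 1.75 from dry seed to 6 h SL in tim17-1 (adjusted p = 3.18e-12) but rose by 0.69 from 48 h S to 6 h SL (adjusted p = 5.15e-06), and its change of 0.02 to 24 h SL did not pass (adjusted p = 0.876). The other, the cruciferin-like storage protein gene AT1G03890, fell by 5.25 from dry seed to 6 h SL (adjusted p = 6.80e-14) and by 2.25 from 6 h SL to 24 h SL (adjusted p = 4.69e-08), while its change of -0.52 into 6 h SL did not pass (adjusted p = 0.0601). Both measured seed coat markers, weak at 4.37 to 10.43 on all tim17-1 arrays, and all 5 measured pollen markers fell from dry seed to 6 h SL, with median changes of -0.09 and -0.77, as did 44.9% of all probe sets. None of these 7 passed a test between 48 h S and 6 h SL or between 6 h SL and 24 h SL. The 5 pollen markers summed to 246 to 458 in tim17-1 and 1067 to 1267 in WT dry seed, and to no more than 27.2 at any later stage in either genotype. No marker of these lists read 0, the lowest reading being 3.8 for a pollen marker at 24 h SL in tim17-1. Without detection calls, readings this low do not show that a transcript was present. The part of these markers in the members' changes was not tested.

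In WT the members had a median intensity of 50.5 at 0 h, 189.7 at 48 h S, 499.7 at 6 h SL and 213 at 24 h SL. Scores ran from 0.71 to 2.69 with a median of 0.88, with 44 members at 1 or more and 4 at 2 or more. All 3 WT arrays at 6 h SL lay above the other 9 WT arrays for 150 of 150 members, which the choice itself largely fixes. The last 3 inside the limit were 258454_at at 0.723, AT5G40670 at 0.721 and AT3G23940 at 0.714. The first 3 outside it were AT2G14460 at 0.714, 249592_at at 0.707 and AT1G34770 at 0.706, so the limit falls on a continuous slope. These wild-type values chose the members and support nothing further.

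The tim17-1 arrays took no part in the choice. There, the members had a median intensity of 58.6 at 0 h, 182 at 48 h S, 488 at 6 h SL and 228 at 24 h SL. At 6 h SL compared with 48 h S, 148 of 150 members (98.7%) were higher at a limma adjusted p under 0.05, where 18.9% of all probe sets tested were. At 24 h SL compared with 6 h SL, 146 (97.3%) were lower, against 22.5% of all. At 6 h SL compared with dry seed, 149 (99.3%) were higher, against 28.0% of all. All 3 tests were passed by 144 members (96.0%), and by 3.46% of the probe sets, 787 in number. In whole seed, more cells of a type and more RNA per cell cannot be told apart in any of these changes.

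The sizes were moderate. In tim17-1 the median member change into 6 h SL was 1.09 on the log2 scale, from 0.34 to 5.28, beside -0.01 over all probe sets. The median change out of it, to 24 h SL, was -0.95, from -4.53 to 0.24, beside -0.01 over all. Measured from dry seed to 6 h SL the median was 2.19, from 0.45 to 6.85, beside -0.03 over all. Here and below a change is a difference of mean log2(intensity + 16), which understates changes of weak transcripts. The 3 arrays at 6 h SL lay above the other 9 tim17-1 arrays for 144 members (96.0%), against 4.43% of all probe sets, and the mean was highest at 6 h SL for 149 and at 24 h SL for 1.

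The 3' minus 5' log2 difference of the ubiquitin control probe sets, a measure of RNA integrity and labelling, moved with the stages. In tim17-1 it lay at 0.39 to 0.43 at 0 h, 1.56 to 1.76 at 48 h S, 1.25 to 1.39 at 6 h SL and 1.35 to 1.48 at 24 h SL, so the 48 h S and 6 h SL arrays did not overlap, while those at 6 h SL and 24 h SL did. For GAPDH it lay at 2.96 to 3.31 at 0 h, 2.70 to 3.01 at 48 h S, 2.59 to 2.95 at 6 h SL and 2.61 to 2.96 at 24 h SL. For actin it lay at 3.72 to 4.96 at 0 h, 5.39 to 5.60 at 48 h S, 5.46 to 5.82 at 6 h SL and 5.49 to 5.89 at 24 h SL. The 6 h SL arrays thus overlapped those at 48 h S and 24 h SL for GAPDH and actin, but for all 3 controls they did not overlap the dry seed arrays. The part of these differences in the members' changes from 0 h and from 48 h S to 6 h SL was not tested.

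**Figure D1:**
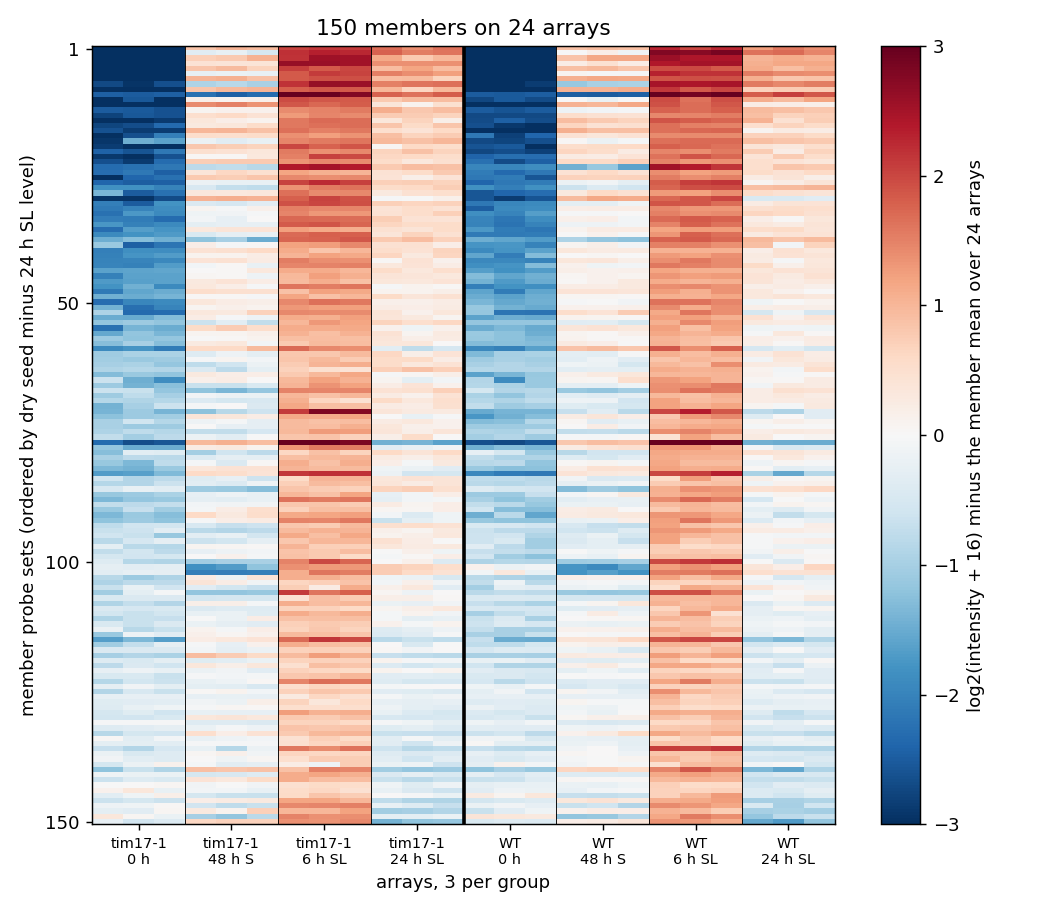
Log2(intensity + 16) of the 150 members (rows) on the 24 arrays (columns, 3 per group, tim17-1 left and WT right), each minus the member's mean over all arrays; colours stop at 3 log2 units either way. Rows run from members with the lowest dry seed level relative to 24 h SL, at the top, to those with the highest, and the 6 h SL columns of both genotypes are the reddest, with a median intensity of 488 in tim17-1 and 499.7 in WT.

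The approach to the peak differed among members. The second-highest stage in tim17-1 was 24 h SL for 89 members, 48 h S for 53 and 0 h for 8. In WT it was 24 h SL for 83, 48 h S for 62 and 0 h for 5. Most members had a higher mean after stratification than in dry seed, 130 in tim17-1 and 131 in WT. These counts compare means without a test or the share over all probe sets, and array medians also rose between these stages. The members thus formed no single shape, some weak in dry seed and others present throughout with a step at 6 h SL, as the heat map of the members shows.

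The same score computed on the tim17-1 arrays alone ran from -0.24 to 2.26 with a median of 0.72. It was below the WT score for 117 members and above it for 33; since members were picked for high WT scores, nothing is read from that imbalance. Of the 150 highest tim17-1 scores over all probe sets, 97 (64.7% of either list) were members, and 148 members ranked within the first 1000. Applied to the other stages, the same rule gave lists of 150 from WT and from tim17-1 that shared 133 at 0 h, 120 at 48 h S and 119 at 24 h SL. In the tim17-1 arrays, which did not choose the WT lists, the scores of these lists had medians of 4.96 at 0 h, 1.54 at 48 h S, 0.72 at 6 h SL and 3.40 at 24 h SL, the one at 6 h SL being the lowest of the 4.

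**Figure D2:**
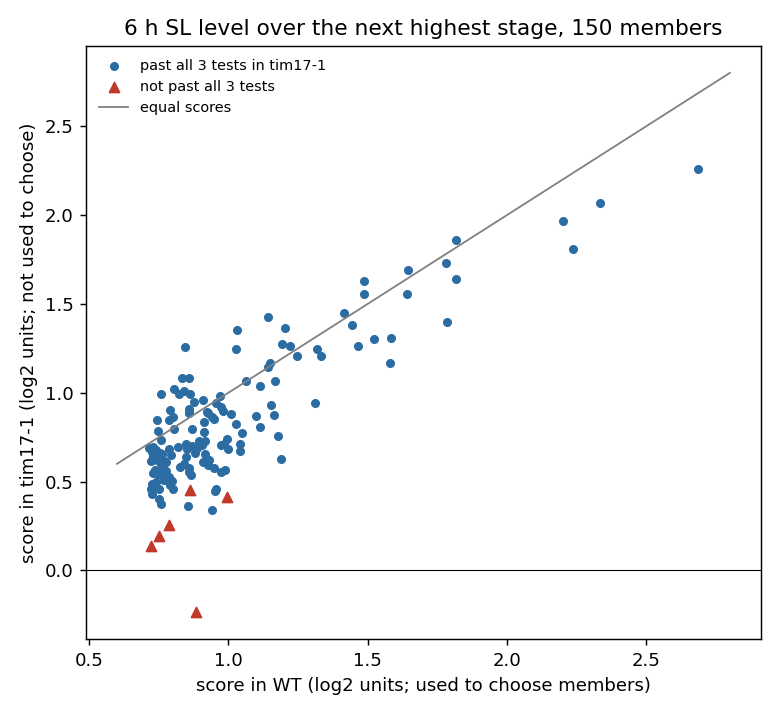
Score of each member (6 h SL mean minus the highest other stage mean, log2 units) in tim17-1 (vertical) against WT (horizontal). Blue points passed all 3 tests in tim17-1 (144), red triangles did not (6), and the line marks equal scores; the highest point is AT4G20230, at 2.26 in tim17-1 and 2.69 in WT.

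AT4G20230, a member of the terpene synthase family, had the largest score in both genotypes. In tim17-1, AT4G20230 read 7.36, 12.8 and 7.29 at 0 h, 10.1, 18.3 and 23.9 at 48 h S, 248, 414 and 396 at 6 h SL, and 62.6, 57.3 and 58.0 at 24 h SL. In WT, AT4G20230 read 5.59, 7.38 and 7.24 at 0 h, 21.9, 32.6 and 18.9 at 48 h S, 229, 299 and 206 at 6 h SL, and 19.6, 16.02 and 32.3 at 24 h SL. The 6 h SL arrays stood far above every other array in both genotypes, and at 24 h SL the tim17-1 arrays all lay above the WT arrays. In tim17-1 its change was 3.45 ± 0.2002 (SE) from 48 h S to 6 h SL (adjusted p = 1.72e-10) and -2.26 ± 0.2002 from 6 h SL to 24 h SL (adjusted p = 2.53e-08).

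Among the translation genes, AT5G12110, a subunit of elongation factor EF1B, which reloads the factor that brings aminoacyl-tRNA to the ribosome, had the highest score. In tim17-1, AT5G12110 read 27.2, 56.7 and 69.1 at 0 h, 23.02, 22.96 and 24.6 at 48 h S, 364, 254 and 294 at 6 h SL, and 76.1, 63.95 and 74.5 at 24 h SL. In WT, AT5G12110 read 34.7, 37.1 and 35.5 at 0 h, 25.4, 23.6 and 24.6 at 48 h S, 324, 316 and 239 at 6 h SL, and 61.0, 74.1 and 78.8 at 24 h SL. It was at its lowest after stratification in both genotypes and stood clear of all other stages at 6 h SL. It rose by 3.00 ± 0.181 (SE) into 6 h SL in tim17-1 (adjusted p = 2.69e-10) and fell by 1.86 after it (adjusted p = 8.37e-08).

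In all, 11 members encode parts of the translation machinery, with a median change of 1.01 into 6 h SL and -0.66 out of it in tim17-1. All 11 passed the 3 tests there, as did 96.0% of the members and 3.46% of all probe sets. The pass counts of the role groups below stand beside the same shares, and nothing is read from them. Roles here were assigned by hand once the members were known, and apart from those picked by the naming rule the genes of the role groups were chosen after their values were seen. Cytosolic ribosomal proteins were represented by AT2G37600 (L36e family), AT3G04230 (S16 family) and AT4G30800 (S17 family). AT4G30800 read 255, 265 and 259 at 48 h S, 1134, 1350.3 and 1296 at 6 h SL and 906, 835 and 742 at 24 h SL in tim17-1, and 327, 297 and 294 at 48 h S, 1579, 1420.1 and 1421 at 6 h SL and 916, 838 and 836 at 24 h SL in WT. It rose by 2.21 in tim17-1 (adjusted p = 3.51e-13) and kept most of that level at 24 h SL, where its change was -0.60 ± 0.0788 (SE).

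AT2G37600 was weak in dry seed and had its main step before the light. In tim17-1, AT2G37600 read 38.9, 20.1 and 39.9 at 0 h, 1312, 1435 and 1171 at 48 h S, 3135, 2666 and 3009.7 at 6 h SL, and 1421, 1681 and 1415 at 24 h SL. In WT, AT2G37600 read 43.1, 39.7 and 43.8 at 0 h, 1393, 1466 and 1329 at 48 h S, 2913, 2958 and 2695 at 6 h SL, and 1599.9, 1382 and 1565 at 24 h SL. No array at 6 h SL overlapped another stage, and the tim17-1 changes were 1.16 ± 0.128 (SE) into 6 h SL and -0.96 ± 0.128 after it.

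Ribosomal proteins of organelles, nuclear genes except for 1, made up a further 6. AT1G15810 and AT1G80620 are of the S15 family, AT1G70190 of the L7/L12 family, AT3G01790 of the L13 family and AT1G64880 of the S5 family. The plastid genome encodes the sixth, rps15. AT1G64880 averaged 1215 ± 69.2 at 48 h S, 2262 ± 149.6 at 6 h SL and 1419 ± 53.4 at 24 h SL in tim17-1 (SD, n = 3). In WT it averaged 1195 ± 41.3, 2412 ± 90.7 and 1454 ± 135 at these stages (SD, n = 3). The changes of the 5 nuclear genes into 6 h SL in tim17-1 were 1.11 for AT1G15810, 0.67 for AT1G80620, 0.72 for AT1G70190, 1.01 for AT3G01790 and 0.89 for AT1G64880.

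The plastid transcript rps15 was noisier. In tim17-1, rps15 read 159, 223 and 171 at 0 h, 206, 175 and 156 at 48 h S, 448, 314 and 592 at 6 h SL, and 293, 331 and 205 at 24 h SL. In WT, rps15 read 122, 214 and 205 at 0 h, 233, 237 and 200.1 at 48 h S, 377, 601 and 563 at 6 h SL, and 352, 289.9 and 244 at 24 h SL. Its 6 h SL and 24 h SL arrays overlapped in tim17-1, and the call out of the peak, -0.66 ± 0.246 (SE), adjusted p = 0.0378, was lost on leaving out tim17-1 6 h SL array 1 or 3 or 24 h SL array 1 or 3 (adjusted p = 0.0544 to 0.199), when only the tim17-1 arrays entered the fit (0.0573) and with cyclic loess scaling (0.111). AT1G77840, of the family of initiation factor eIF5, which acts in start codon selection, read 509, 502 and 452 at 48 h S, 898, 994 and 969.9 at 6 h SL and 603, 623 and 634 at 24 h SL in tim17-1, and 439, 486 and 448 at 48 h S, 1038, 1015 and 1070.5 at 6 h SL and 608, 592 and 604 at 24 h SL in WT. It rose by 0.95 ± 0.0568 (SE) and then fell by 0.61 in tim17-1.

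A list of 24 ribosome biogenesis genes holds nucleolar factors that process and assemble ribosomal RNA and protein. None of the 11 measured was a member. Of the 11 measured, none rose and 8 fell from 48 h S to 6 h SL in tim17-1, and none rose and 10 fell from 6 h SL to 24 h SL, with medians of -0.54 and -0.85. Of all probe sets, 18.9% rose and 19.2% fell in the first of these comparisons, and 20.7% rose and 22.5% fell in the second. All 11 were higher at 6 h SL than in dry seed, as were 28.0% of all probe sets. The 3 with the largest changes into 6 h SL were BRX1-1 (AT3G15460) at -1.09, EBP2 (AT3G22660) at -0.91 and BRX1-2 (AT1G52930) at -0.72, all assembly factors of the large subunit. In the plot of changes into and out of 6 h SL, the place of the 11 translation members follows from their choice.

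**Figure D3:**
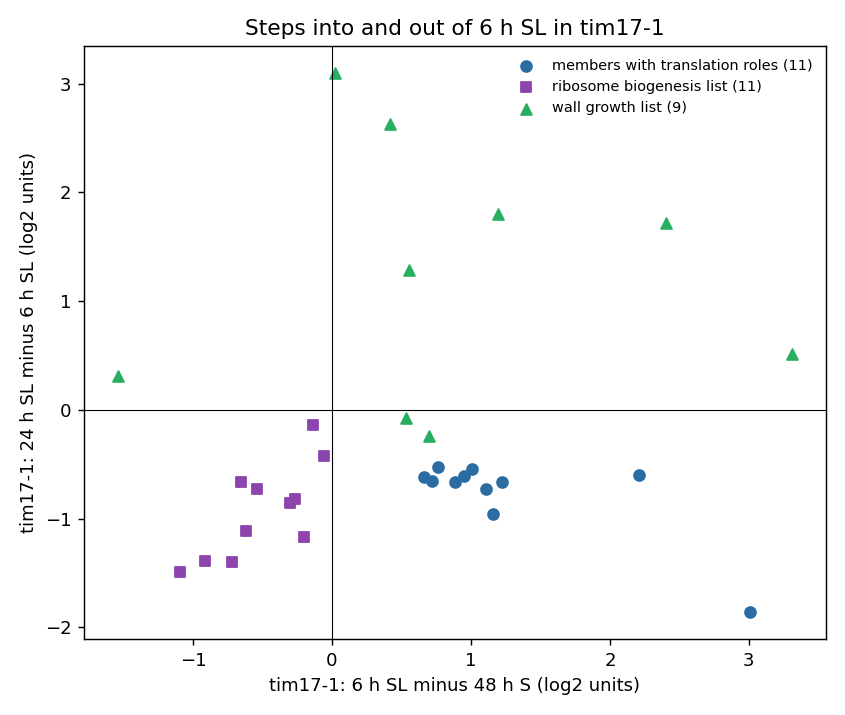
Change from 48 h S to 6 h SL (horizontal) against change from 6 h SL to 24 h SL (vertical) in tim17-1, in log2 units, each point 1 probe set. Members with translation roles (circles, 11) lie at lower right, ribosome biogenesis genes (squares, 11) at lower left with medians of -0.54 and -0.85, and most cell wall growth genes (triangles, 9) at upper right.

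Genes of RNA handling made up 7 members, all of which passed the 3 tests in tim17-1 (medians 0.78 into 6 h SL and -1.12 out of it). AT2G32070, of the CAF1 family of deadenylases, which shorten the poly(A) tails of messenger RNA, is the first of them. In tim17-1, AT2G32070 read 1474, 1503 and 1601 at 0 h, 1660.2, 1826 and 1726 at 48 h S, 3493, 3379.5 and 3479 at 6 h SL, and 1489, 1565 and 1437 at 24 h SL. In WT, AT2G32070 read 1527, 1509.8 and 1509 at 0 h, 1751, 1720.1 and 1810.5 at 48 h S, 3311, 3453 and 3620.1 at 6 h SL, and 1403, 1504 and 1429.9 at 24 h SL. It differed little between dry seed and 48 h S, stood apart at 6 h SL, and was close to its dry seed level again at 24 h SL. The tim17-1 changes were 0.98 ± 0.0413 (SE) and -1.20 ± 0.0413.

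RRP41L, a relative of a subunit of the RNA-degrading exosome, read 192, 181 and 180.3 at 48 h S and 277, 319 and 362 at 6 h SL in tim17-1, and 172, 188 and 199 at 48 h S and 325, 323 and 329 at 6 h SL in WT. It rose by 0.74 ± 0.0981 (SE) in tim17-1 and fell by 0.90 to 24 h SL. AT4G38010 and AT3G51320 encode pentatricopeptide repeat proteins, which bind organelle transcripts, and changed by 0.70 and 0.91 into 6 h SL in tim17-1. AT1G62150, of the mTERF family of organelle transcription proteins, and AT5G13830, an FtsJ-like RNA methyltransferase, rose by 0.58 and 1.02. The seventh, AT1G13730, which carries NTF2 and RNA recognition domains, rose by 0.78.

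Mitochondrial proteins accounted for 4 members, all past the 3 tests in tim17-1. AT5G61880 encodes a PAM16-like subunit of the motor that pulls proteins through the inner membrane channel of which TIM17 is part. In tim17-1, AT5G61880 read 547, 614 and 522 at 0 h, 678, 669 and 673 at 48 h S, 1917, 1654 and 1712 at 6 h SL, and 680.0, 595 and 548 at 24 h SL. In WT, AT5G61880 read 599, 548 and 592 at 0 h, 746, 681 and 786 at 48 h S, 1759, 1682 and 1706 at 6 h SL, and 604, 466 and 559 at 24 h SL. The 6 h SL arrays stood clear of the other 3 stages, which lay close together, and the genotypes overlapped at 6 h SL. Its tim17-1 changes were 1.36 ± 0.0892 (SE, adjusted p = 8.05e-10) and -1.51 ± 0.0892 (adjusted p = 9.88e-11).

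AT1G50400 encodes TOM40-2, a form of the import pore of the outer membrane. In tim17-1, AT1G50400 read 131, 102 and 115 at 0 h, 254, 268 and 268 at 48 h S, 435, 432 and 459 at 6 h SL, and 49.98, 59.95 and 61.9 at 24 h SL. In WT, AT1G50400 read 111, 118 and 116 at 0 h, 184, 191 and 210.2 at 48 h S, 430.0, 414 and 362 at 6 h SL, and 44.0, 37.8 and 60.9 at 24 h SL. At 24 h SL it was lower than in dry seed, and the tim17-1 change out of the peak was -2.65 ± 0.105 (SE), after 0.71 ± 0.105 into it. The tim17-1 arrays lay above the WT arrays at 6 h SL and at 48 h S without overlap, but the differences of 0.14 at 6 h SL and 0.41 at 48 h S did not pass the test (adjusted p = 1.00 and 0.0741). It was 1 of only 2 genes measured in a list of 14 mitochondrial import genes; the other, the processing peptidase subunit MPPBETA, changed by 0.07 into 6 h SL and 0.16 after it in tim17-1, neither past the test (adjusted p = 0.532 and 0.0981).

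AT5G40660, of the ATP12 family that helps assemble the mitochondrial ATP synthase, rose by 1.13 ± 0.113 (SE) and fell by 0.46 in tim17-1. AT4G20930, a 3-hydroxyisobutyrate dehydrogenase of valine breakdown, was a weak transcript with a shallow descent. It read 11, 7.19 and 8.39 at 48 h S, 50.1, 47.8 and 57.0 at 6 h SL and 36.3, 38.2 and 35.0 at 24 h SL in tim17-1, and 10.99, 7.49 and 6.67 at 48 h S, 71.3, 53.3 and 50.2 at 6 h SL and 26.2, 20.8 and 27.6 at 24 h SL in WT. At 24 h SL the 3 tim17-1 arrays were all above the WT arrays.

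Secreted proteases and cell wall proteins gave 4 members, all past the 3 tests, with a median change of 5.88 from dry seed to 6 h SL in tim17-1. AT5G45650, a subtilisin-like protease, a family of secreted proteins that cleave other proteins of the wall, was weak in dry seed. In tim17-1, AT5G45650 read 10.7, 8.29 and 5.76 at 0 h, 277, 301 and 244 at 48 h S, 1654, 1839.6 and 1762 at 6 h SL, and 1229, 1044 and 1112 at 24 h SL. In WT, AT5G45650 read 8.87, 5.80 and 5.60 at 0 h, 348, 408 and 323 at 48 h S, 2497, 2427 and 2642 at 6 h SL, and 1129, 1171 and 997 at 24 h SL. At 6 h SL every tim17-1 array lay below every WT array, and the groups overlapped at 24 h SL. The tim17-1 changes were 2.61 ± 0.0978 (SE) into 6 h SL and -0.63 ± 0.0978 out of it.

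BGAL16, a beta-galactosidase, which trims galactose from wall polysaccharides, fell further after 6 h SL than it had climbed from 48 h S. In tim17-1, BGAL16 read 8.47, 14.3 and 8.66 at 0 h, 73.6, 81.1 and 86.0 at 48 h S, 237, 326 and 287 at 6 h SL, and 28.4, 32.3 and 29.5 at 24 h SL. In WT, BGAL16 read 31.5, 11.4 and 11.1 at 0 h, 85.2, 85.9 and 103 at 48 h S, 266, 293 and 294 at 6 h SL, and 18.6, 14.4 and 25.2 at 24 h SL. The level at 24 h SL was below that at 48 h S in both genotypes. Its tim17-1 change was 1.63 ± 0.172 (SE) into 6 h SL and -2.69 ± 0.172 after it.

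A different course was seen in AT1G29980, a wall protein with a DUF642 domain, and AT3G14240, another subtilisin-like protease. AT1G29980 read 4.92, 4.91 and 4.94 at 0 h and 949, 1067 and 1027 at 48 h S in tim17-1, and 19.3, 7.31 and 4.04 at 0 h and 975, 1023 and 996 at 48 h S in WT. Most of its climb was thus made in the cold, with 1.14 of 6.76 log2 units added from 48 h S to 6 h SL in tim17-1. For AT3G14240 the share was 0.89 of 5.58.

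A list of 22 wall growth genes covers the expansins, xyloglucan enzymes and related genes of cell expansion. None of the 9 measured was a member. Of the 9 measured, 7 rose and 1 fell into 6 h SL in tim17-1, and 7 rose and 1 fell from 6 h SL to 24 h SL, beside the shares of all probe sets given for the ribosome biogenesis list. The 3 with the largest changes into 6 h SL were CSLC4 at 3.31, a xyloglucan synthase, EXPA9 at 2.41, and EXPB1 at -1.54. They went on to change by 0.51, 1.72 and 0.32 by 24 h SL, with higher levels at 24 h SL than at 6 h SL in all 3. EXPA8, named because it was the only one past all 3 peak tests in tim17-1, had changes of 0.70 and -0.24 and a WT score of 0.50, under the members' limit.

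Transcription and signalling genes numbered 7, and all passed the 3 tests in tim17-1 (medians 1.47 and -1.04). AT5G10120 belongs to the EIN3-like family of transcription factors of the ethylene pathway. In tim17-1, AT5G10120 read 458, 427 and 430.0 at 0 h, 2134, 2076 and 2078 at 48 h S, 10037, 11564 and 10129 at 6 h SL, and 4032, 4048 and 3883 at 24 h SL. In WT, AT5G10120 read 454, 534 and 554 at 0 h, 2150.3, 2243 and 1968 at 48 h S, 8558, 10327 and 10747 at 6 h SL, and 2569, 2825 and 3170.5 at 24 h SL. It climbed at each stage up to 6 h SL, and at 24 h SL it stayed above its 48 h S level, with all 3 tim17-1 arrays above the WT arrays. The tim17-1 changes were 2.32 ± 0.0896 (SE, adjusted p = 8.70e-13) and -1.40 ± 0.0896 (adjusted p = 3.08e-10).

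**Figure D4:**
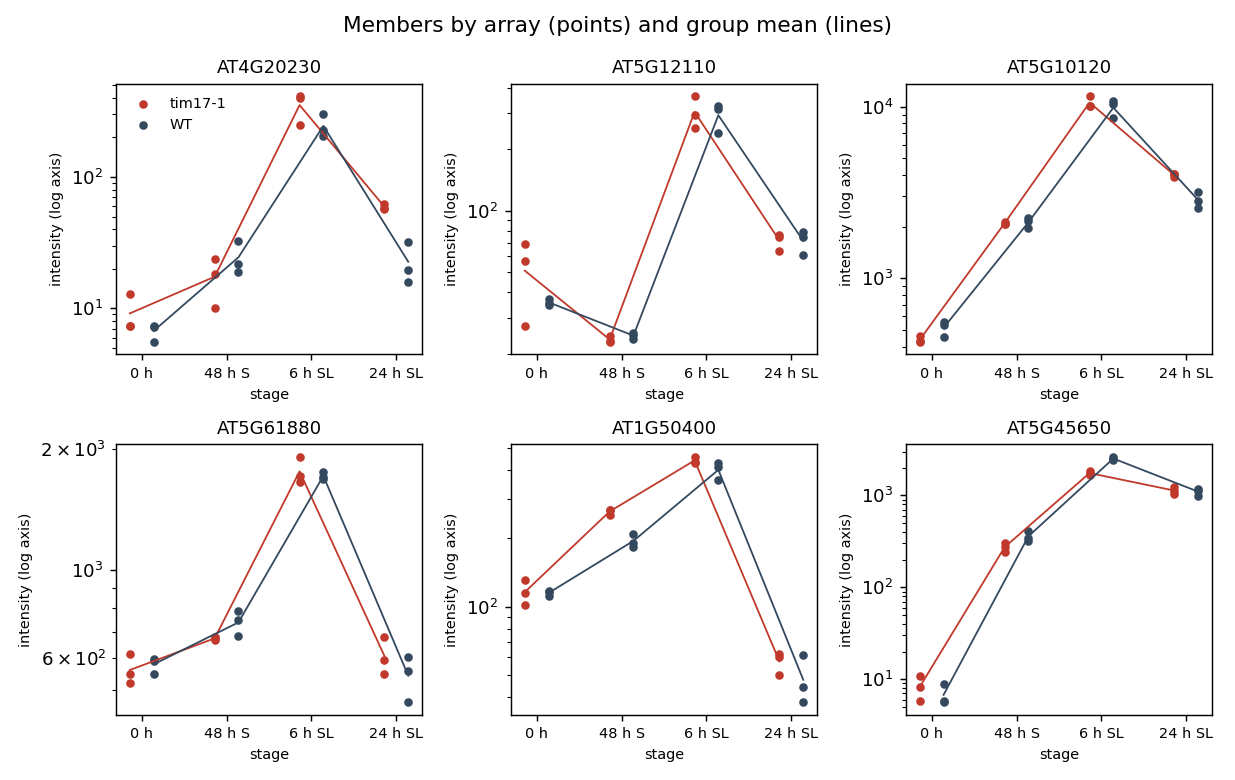
Intensity (log axis) of 6 members by stage, each point 1 array and lines joining group means, tim17-1 in red and left of WT in dark blue. AT4G20230, AT5G12110, AT5G10120, AT5G61880, AT1G50400 and AT5G45650 are all highest at 6 h SL in both genotypes, and AT5G45650 averages 1752 ± 93.2 in tim17-1 and 2522 ± 109.9 in WT there (SD, n = 3).

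AT1G34110 encodes a leucine-rich repeat receptor-like kinase of the cell surface. In tim17-1, AT1G34110 read 14.4, 14.1 and 9.67 at 0 h, 105, 92.5 and 114 at 48 h S, 404, 402 and 391 at 6 h SL, and 198, 156 and 155 at 24 h SL. In WT, AT1G34110 read 16.2, 12.6 and 19.1 at 0 h, 126, 132 and 106 at 48 h S, 402, 442 and 420.2 at 6 h SL, and 131, 115 and 145 at 24 h SL. It stood at 6 h SL above all other arrays in both genotypes, changing by 1.80 ± 0.104 (SE) and -1.17 ± 0.104 in tim17-1. CR4, the CRINKLY4 receptor kinase of epidermal patterning, rose by 1.47 ± 0.147 (SE) into 6 h SL and fell by 0.52 after it.

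AT5G27930, a protein phosphatase 2C, was lower on all tim17-1 arrays than on all WT arrays at 6 h SL. It read 118, 154 and 137 in tim17-1 and 157, 159.6 and 184 in WT, a difference of -0.27 ± 0.116 (SE) that did not pass the test (adjusted p = 0.523). SK18, a SKP1-like subunit of ubiquitin ligases, rose by 1.15 and fell by 1.04 in tim17-1. AT5G08565, of the SPT4 family that aids transcript elongation, and AT4G39780, of the ERF/DREB transcription factors, had smaller steps of 0.56 and 0.57 into 6 h SL.

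In a list of 16 auxin and brassinosteroid genes, 3 were measured and none was a member. GH3.5 (WES1), an enzyme that joins amino acids to auxin, was the only one past all 3 peak tests in tim17-1, with changes of 1.02 and -0.40, and its WT score of 0.69 fell just under the limit. Of 5 gibberellin genes measured of 25, 2 rose and 1 fell into 6 h SL and none peaked there. Of 2 light signalling genes measured of 27, none rose and 1 fell into 6 h SL. Of 2 clock genes measured of 20, 1 rose and none fell. Of all probe sets, 18.9% rose and 19.2% fell into 6 h SL in tim17-1, and nothing is read from so few genes. No gene in the lists of abscisic acid and dormancy, of nitrogen or of endosperm had a probe set with 1 gene in the annotation. Nothing is said of these lists here.

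In the further lists, no measured gene was a member or passed all 3 peak tests in tim17-1. Of 5 late embryogenesis genes measured of 8, none rose and 4 fell into 6 h SL. Of 3 heat shock genes measured of 21 none rose and 2 fell, and of 3 oil breakdown genes measured of 11 none rose and 2 fell. Of 4 flavonoid genes measured of 16, 1 rose and 1 fell, as did 1 and 1 of 3 photosynthesis genes measured of 14. Of 2 stress transcription factors measured of 17, none rose and 1 fell, and the 1 cell cycle gene measured of 12 rose. These counts stand beside the 18.9% of all probe sets that rose and the 19.2% that fell in this comparison. With so few genes per list, nothing is read from them.

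Metabolic enzymes made up 10 members, of which 8 passed all 3 tests in tim17-1 (medians 1.15 and -0.66). Besides AT4G20230 they include AT1G16350, an inosine-5'-monophosphate dehydrogenase of guanine nucleotide synthesis, and AT3G23940, a dihydroxyacid dehydratase of branched-chain amino acid synthesis. AT1G16350 averaged 787 ± 30.7 at 48 h S, 1448 ± 16.3 at 6 h SL and 922 ± 66.3 at 24 h SL in tim17-1, and 795 ± 24.4, 1465 ± 107 and 876 ± 31.7 in WT (SD, n = 3). The steps exceeded the spread of either group. In tim17-1 they were 0.87 ± 0.0592 (SE) for AT1G16350 and 1.11 ± 0.0865 for AT3G23940 into 6 h SL.

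SDP1-LIKE, a patatin-like lipase related to the main lipase of seed oil breakdown, rose by 0.88 ± 0.0849 (SE) and fell by 0.71. It read 191, 194 and 189 at 6 h SL in tim17-1 and 206, 198 and 235 in WT. UNG, a uracil DNA glycosylase of DNA repair, rose by 1.15 and fell by 0.67 in tim17-1. UGT85A7, a glycosyltransferase, was lowest after stratification, reading 18.4, 15.0 and 15.1 at 48 h S and 57.0, 71.8 and 67 at 6 h SL in tim17-1, and 14.8, 14.3 and 14.9 at 48 h S and 63.5, 81.2 and 104 at 6 h SL in WT. AT4G15390, of the HXXXD acyltransferases, and AT3G43670, a copper amine oxidase, rose by 1.14 and 1.73 and fell by 0.52 and 0.56.

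The 6 members that missed 1 or more tests in tim17-1 include 3 with names. For atpH, the plastid gene of ATP synthase subunit c, tim17-1 read 121, 157 and 199.8 at 0 h, 171, 142 and 146 at 48 h S, 212, 160.2 and 311 at 6 h SL, and 153, 160.4 and 112 at 24 h SL. In WT, atpH read 146, 199.7 and 169.9 at 0 h, 166, 177 and 171 at 48 h S, 259, 357 and 369 at 6 h SL, and 170.2, 180.1 and 118 at 24 h SL. In tim17-1, array 2 at 6 h SL lay within the range of the other stages, and the changes were 0.48 ± 0.216 (SE, adjusted p = 0.0905) from 48 h S and 0.45 ± 0.216 (adjusted p = 0.0688) from dry seed. Without 6 h SL array 2 these became 0.69 (adjusted p = 0.0199) and 0.66 (adjusted p = 0.014), and without 0 h array 3 the change from dry seed became 0.61 (adjusted p = 0.0266). Its fall to 24 h SL, -0.59 ± 0.216 (adjusted p = 0.0338), was lost without 6 h SL array 1 (0.0593) or 3 (0.213) or 24 h SL array 3 (0.156).

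APS3, an ATP sulfurylase, which activates sulfate for assimilation, stayed up in tim17-1. In tim17-1, APS3 read 23.7, 61.5 and 59.0 at 0 h, 32.0, 48.0 and 39.8 at 48 h S, 133, 162 and 137 at 6 h SL, and 132, 109.7 and 130.3 at 24 h SL. In WT, APS3 read 66.1, 51.7 and 28.5 at 0 h, 38.2, 49.6 and 49.5 at 48 h S, 199, 194 and 193 at 6 h SL, and 118, 110.4 and 101 at 24 h SL. The 6 h SL and 24 h SL arrays nearly met in tim17-1 and not in WT. The choice of members largely fixes the gap in WT. APS3 is also among the members named for the lowest tim17-1 scores, so nothing is read from this contrast. The tim17-1 change to 24 h SL was -0.19 ± 0.220 (SE, adjusted p = 0.509).

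AT5G40670, a PQ-loop repeat protein of the cystinosin type, did likewise. In tim17-1, AT5G40670 read 308, 370.1 and 346 at 0 h, 198, 194 and 171 at 48 h S, 790.3, 750.1 and 716 at 6 h SL, and 699, 735 and 617 at 24 h SL. In WT, AT5G40670 read 328, 299 and 286 at 0 h, 168, 199.8 and 179 at 48 h S, 925, 1144 and 1116 at 6 h SL, and 601, 628 and 678 at 24 h SL. At 6 h SL the tim17-1 arrays were all below the WT arrays, and in tim17-1 the 6 h SL and 24 h SL ranges overlapped. AT5G40670 was named for a low tim17-1 score too, and nothing is read from its contrast with WT. The change of AT5G40670 to 24 h SL in tim17-1 was -0.14 ± 0.0916 (SE, adjusted p = 0.254). AT5G40670 and AT5G40660 are next to each other in the gene order of the reference list, with no coding gene between them. No other such pair was found among the members with 1 gene, and the rest were not placed in that order.

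The other 3 have no gene in the annotation. Probe set 255284_at read 514, 486 and 501 at 48 h S and 502, 791 and 759.8 at 6 h SL in tim17-1, and 423, 438 and 413 at 48 h S and 771, 1009 and 824 at 6 h SL in WT. Its change of 0.41 ± 0.168 (SE) into 6 h SL missed the test (adjusted p = 0.0624), array 1 lying among the 48 h S arrays. Probe set 247625_at read 67.2, 46.1 and 38.6 at 6 h SL and 43.5, 33.5 and 40.4 at 24 h SL in tim17-1, a change of -0.26 ± 0.126 (adjusted p = 0.121). The third, 257642_at, was the 1 member with its tim17-1 maximum at 24 h SL.

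Probe set 261768_at had the steepest descent of all members in tim17-1, at -4.53 ± 0.104 (SE). In tim17-1, 261768_at read 14, 7.28 and 8.92 at 0 h, 272, 292 and 266 at 48 h S, 1363, 1253 and 1033 at 6 h SL, and 38.5, 40.1 and 32.4 at 24 h SL. In WT, 261768_at read 7.61, 6.69 and 8.99 at 0 h, 241, 266 and 251 at 48 h S, 1522, 1183 and 1329 at 6 h SL, and 38.2, 36.6 and 36.7 at 24 h SL. By 24 h SL it was far below its 48 h S level. Probe set 260300_at had the steepest climb of all members from 48 h S, 5.28 ± 0.114 in tim17-1. It read 9.59, 5.95 and 8.07 at 48 h S, 1009, 924 and 813 at 6 h SL and 392.1, 358 and 410.5 at 24 h SL, and 5.63, 5.17 and 5.90 at 48 h S, 1338, 866 and 1027 at 6 h SL and 405, 492 and 421 at 24 h SL in WT. These probe sets, like 255284_at, 247625_at and 257642_at, were picked after their values were seen.

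The remaining named members are given by their tim17-1 changes into and out of 6 h SL. AT3G15357 changed by 2.13 and -1.91, and was among the 8 whose second-highest stage in tim17-1 was dry seed. AT3G48410 changed by 2.09 and -1.25, AT5G26731 by 2.09 and -1.26, and AT4G19160 by 2.72 and -0.93. AT3G25290, of the cytochrome b561 type of membrane electron carriers, changed by 1.73 and -1.28. All of these passed the tests in both steps.

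Smaller steps were seen in AT1G31760 (1.44 and -0.87), AT4G25600 (1.15 and -0.77), AT1G79070 (1.17 and -0.88) and AT1G65370 (0.87 and -0.40). AT1G10750 changed by 1.26 and -1.70, AT3G55420 by 1.17 and -1.08, and AT5G22550 by 1.33 and -1.08. AT1G64490 changed by 1.43 and -1.25. AT3G55690 had the smallest step into 6 h SL of any member, 0.34 ± 0.0824 (SE, adjusted p = 0.00271), and a steep one out of it, -1.85. All 9 were past the tests in both steps.

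Differences between the genotypes are given as a description, since the WT means chose the members. At 6 h SL, 0 of 150 were called higher in tim17-1 and 5 lower, where 0.51% and 0.769% of all probe sets were. The median difference was -0.06, with 45 positive and 105 negative, and the arrays did not overlap for 6 higher and 30 lower members of the 150, against 6.72% and 8.22% of all probe sets. The 5 were AT5G45650 at -0.52, AT5G40670 at -0.48, 250859_at at -0.35, 257642_at at -0.54 and 266687_at at -0.26. A choice made on high WT means at this stage favours negative values, so nothing is read from this.

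At 24 h SL, 10 members were called higher in tim17-1 and 0 lower, where 1.59% and 2.73% of all probe sets were. The median difference was 0.10, with 108 positive and 42 negative, and the arrays did not overlap for 30 higher and 3 lower members of the 150, against 8.58% and 7.83% of all probe sets. The largest differences among the 10 called were AT4G20230 at 0.98, 248676_at at 0.68, 267128_at at 0.62, 257642_at at 0.57 and AT5G10120 at 0.48. Member 248528_at differed by 0.67 without passing the test (adjusted p = 0.349). A choice made on low WT means can favour positive values at 0 h, 48 h S and 24 h SL alike. The cause of the differences at 24 h SL was not tested, and again nothing is read.

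At 48 h S, 3 members were called higher in tim17-1 and 1 lower, against 0.361% and 0.87% of all probe sets. The 3 were 257634_s_at at 0.62, AT3G55690 at 0.52 and AT5G08565 at 0.40, and the lower was AT1G64490 at -0.57. AT3G55690 read 124, 109 and 93.9 in tim17-1 and 72.5, 70.8 and 68.6 in WT at that stage, without overlap. In dry seed 2 were called higher and 3 lower, against 1.32% and 2.33%. The 2 were 254045_at and AT2G39870, and the 3 were 265475_at, AT3G25290 and SK18. Over the members, the median difference at 48 h S was -0.005, with 74 positive and 76 negative. In dry seed the median was 0.005, with 78 positive and 72 negative. The genes called at only 1 stage were not tested for a difference between stages.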

How the data were processed

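Total RNA from 24 Arabidopsis seed samples was biotin-labelled from 400 ng and hybridised to 1-colour Affymetrix arrays, per the labels' protocols. The values are the linear intensity per probe set that the authors deposited. MAS5, RMA and Partek were used, per the submitters' processing notes, though the sources used here do not say which of them made the deposited intensity values or how arrays were scaled. The values were used as deposited, 64 control probe sets of 22810 were left out, and log2(value + 16) was taken. Genes were named through a platform annotation and a gene list of assembly GCF_000001735.4 (TAIR10.1), which gave 13513 probe sets 1 gene, 503 several and 8730 none.

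With limma 3.58.1 (R 4.3.3, with version 1.17.8 of the data.table package), 8 group means were fitted over 24 arrays with 16 residual degrees of freedom and empirical Bayes moderation. P-values were adjusted by Benjamini-Hochberg over 22746 probe sets and called under 0.05. All adjusted p-values are limma's. The procedure was tested on simulated data. Exact permutation of 3 and 3 arrays reaches no p under 0.1, and was not used.

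The members and the gene lists were chosen with earlier results of these data known. Genes were named by a rule. It took the 20 highest WT scores with 1 gene, members with a symbol, and the 5 highest and 5 lowest tim17-1 scores. It also took the 5 largest tim17-1 minus WT differences at 6 h SL in each direction. Members in a list and the probe sets at the limit were named too. In lists with at least 3 measured genes it allowed the 3 largest changes into 6 h SL. All 3 are given only for the ribosome biogenesis and wall growth lists. Alternatives were another offset, cyclic loess scaling, an intensity filter at 64, array weights, the tim17-1 arrays alone, replicate number as a block, and leaving out each array. Promoter motifs were not analysed here.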

Additional observations from a re-analysis of the deposited data

Results flagged for a closer look

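Probe set 257642_at, with no gene in the annotation, differed in opposite directions between 6 h SL and 24 h SL in the genotypes, with no overlap of arrays. In tim17-1 it read 52.6, 42.9 and 41.0 at 6 h SL and 53.4, 61.6 and 53.8 at 24 h SL. In WT it read 75.7, 71.1 and 73.4 at 6 h SL and 30.1, 24.4 and 45.04 at 24 h SL. The tim17-1 change alone, 0.24 ± 0.123 (SE), did not pass the limma test (adjusted p = 0.143). The difference of the mean changes, tim17-1 minus WT, was 1.12 on the log2 scale. That difference was not tested, the WT values chose the probe set, and all values are weak, without a known distance from background.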

How the results depend on the processing

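The count of members past all 3 tests in tim17-1, 144, was 139 with log2(value + 1) and 145 with log2(value + 64). It was 137 with cyclic loess scaling and 137 of the 140 left by the intensity filter. Array weights gave 145 and the tim17-1 arrays alone 139. On leaving out 1 tim17-1 array at a time the count was 140 to 144. With the replicate number as a block it was 144, with no call lost or gained. Same-numbered arrays of different groups did not deviate together (84 pairs, r of -0.26 to 0.17, median -0.005, 5 over 0.1). For differently numbered arrays r was -0.27 to 0.29 (168 pairs, median 0.002, 9 over 0.1). The numbers thus gave no sign of pairing, but a correlation over all probe sets cannot exclude it. Without 1 tim17-1 array, 146 to 148 members were higher than at 48 h S and 141 to 146 lower at 24 h SL. Compared with dry seed, 149 to 150 were higher. The median changes moved more. With log2(value + 1) they were -1.04 out of 6 h SL and 2.74 from dry seed. With log2(value + 64) they were 0.88 into 6 h SL, -0.76 out of it and 1.62 from dry seed. With cyclic loess scaling they were -0.82 out of it and 1.93 from dry seed, and with the filter 2.28 from dry seed. Offsets change the log scale of weak values by construction; for the other settings the cause was not tested. On leaving out 1 tim17-1 array the medians were 1.05 to 1.09, -0.99 to -0.93 and 2.08 to 2.19. The member list shared 120 of 150 with that under log2(value + 1), 123 under log2(value + 64) and 121 under loess. It shared 140 under the filter, 133 with stage medians and 134 to 150 without 1 WT array. The overlap with the tim17-1 list was 98 with log2(value + 1), 98 with loess and 93 to 100 without 1 array. Members named by score, symbol, genotype difference or list were followed singly, and the other genes described above were not. Among those followed, AT5G40670 changed by 0.0544 out of 6 h SL with loess (adjusted p = 0.628), the only change of sign. All other changed calls among them were those of atpH and rps15. For atpH the change out of 6 h SL was lost with loess (adjusted p = 0.0844) and in the tim17-1 arrays alone (0.0822), and the filter gave 0.48 into 6 h SL (0.0302) and 0.45 from dry seed (0.0317). With 3 arrays per group and no detection calls, members under an intensity of 64 are the least certain.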
